A study of Homo sapiens with 2 samples.

Results

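The genes described here are 10 genes of the epithelial-mesenchymal transition (EMT), namely 6 transcription factors (ZEB1, ZEB2, SNAI1, SNAI2, TWIST1 and TWIST2) and 4 mesenchymal markers (VIM, CDH2, FN1 and SPARC). They were found by gene symbol in the platform's probe-to-gene annotation, which gave 11 probe sets, each with 1 symbol, among 33297 probe sets in all. ZEB2 had 2 probe sets and each other gene had 1. The 10 genes are part of 18417 genes that the annotation names by probe sets with a single symbol. Expression was measured on Affymetrix arrays in SW480 cells, a human line from a colorectal adenocarcinoma. The first array, called the array labelled TFAP2E, held RNA of stable SW480 transfectants labelled as overexpressing the TFAP2E coding sequence, which encodes the transcription factor AP-2 epsilon. The second, the vector array, held RNA of SW480 transfectants with the empty vector. Both kinds of cells had been selected with Geneticin, and single clones had been picked. The labels do not say whether an array holds 1 clone or several, so that a difference between clones and an effect of TFAP2E cannot be told apart. There was 1 array per group, and therefore no value below has a replicate, an error or a test.

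In EMT, epithelial cells loosen their junctions and take on a spindle shape, motility and a matrix-producing program. The zinc finger proteins SNAI1 (Snail), SNAI2 (Slug), ZEB1 and ZEB2 and the basic helix-loop-helix proteins TWIST1 and TWIST2 bind E-boxes and repress CDH1, the gene of the epithelial cadherin, together with other junction genes. Vimentin (VIM), N-cadherin (CDH2), fibronectin (FN1) and osteonectin (SPARC) are the usual marks of the mesenchymal side. In colorectal cancer these factors are studied at the invasive front, and microRNAs of the miR-200 family hold ZEB1 and ZEB2 down in epithelial cells.

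Levels are given on the log2 scale as deposited, after RMA. Differences are the array labelled TFAP2E minus the vector array, also in log2 units. A gene is called dim when both of its values lie below 5.55, the median of all probe-set values on both arrays, which is a rule of thumb and not a detection limit. Of the 10 genes 6 passed this filter (ZEB1, SNAI2, TWIST1, TWIST2, VIM and FN1), and 4 were dim (ZEB2, SNAI1, CDH2 and SPARC), as were 6869 of all 18417 genes. The TFAP2E probe set itself read 6.81 on the array labelled TFAP2E and 6.77 on the vector array, a difference of 0.04, so that the introduced gene is not seen in these values. The labels and files do not say which part of the transcript that probe set reads. All directions below rest on the labels. Of 12 colorectal epithelial markers 9 were above the filter, with KRT8 at 12.1 on the array labelled TFAP2E and 12.3 on the vector array. The intestinal markers KRT20, CDH17 and GPA33 were dim. Of the 9 above the filter 6 were lower and 3 higher, where 59.2% of all genes above the filter were higher. VIL1 was among the higher ones, with a difference of 1.28. It read 6.22 on the array labelled TFAP2E and 4.94, under the filter value, on the vector array. With the vector value replaced by the filter value, the difference was 0.67. Of 12 stromal markers 9 were dim, among them DCN, LUM, PDGFRA and THY1, and 3 were above the filter. ACTA2 read 7.04 on the array labelled TFAP2E and 6.71 on the vector array, and COL1A1 read 6.45 and 6.40 in the same order. COL1A2 read 5.47, under the filter value, on the array labelled TFAP2E and 5.56 on the vector array.

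Promoter sequence is shown for FN1 and VIM, the members above the filter with the most positive differences, and for TWIST2 and ZEB1, whose windows hold motifs of AP-2 or of the EMT factors themselves. The windows are the 250 bases before a RefSeq start site (GRCh38.p14), of which FN1 is on the minus strand at chr2:215436069-215436318, VIM on the plus strand at chr10:17227991-17228240, TWIST2 on the plus strand at chr2:238847835-238848084, and the ZEB1 start shown, number 3 of 7, on the plus strand at chr10:31318966-31319215. Capitals mark the AP-2 motif GCCNNNGGC and the GC boxes GGGCGG or CCGCCC in FN1, VIM and TWIST2, and the E-boxes CACCTG or CAGGTG in ZEB1.
FN1: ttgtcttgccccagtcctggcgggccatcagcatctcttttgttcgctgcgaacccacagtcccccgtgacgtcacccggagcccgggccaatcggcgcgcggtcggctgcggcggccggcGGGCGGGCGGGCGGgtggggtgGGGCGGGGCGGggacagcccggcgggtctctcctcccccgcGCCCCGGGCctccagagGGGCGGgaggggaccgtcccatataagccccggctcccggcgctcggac
VIM: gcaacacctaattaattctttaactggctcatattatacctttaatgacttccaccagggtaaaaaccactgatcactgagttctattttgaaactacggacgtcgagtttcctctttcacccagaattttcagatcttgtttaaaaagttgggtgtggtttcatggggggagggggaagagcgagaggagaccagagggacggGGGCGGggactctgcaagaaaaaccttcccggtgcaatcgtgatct
TWIST2: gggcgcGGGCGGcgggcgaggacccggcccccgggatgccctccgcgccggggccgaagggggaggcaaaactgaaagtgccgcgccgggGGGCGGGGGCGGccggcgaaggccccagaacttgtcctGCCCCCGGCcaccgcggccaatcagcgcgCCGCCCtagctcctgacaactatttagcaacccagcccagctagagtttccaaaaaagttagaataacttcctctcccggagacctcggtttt
ZEB1: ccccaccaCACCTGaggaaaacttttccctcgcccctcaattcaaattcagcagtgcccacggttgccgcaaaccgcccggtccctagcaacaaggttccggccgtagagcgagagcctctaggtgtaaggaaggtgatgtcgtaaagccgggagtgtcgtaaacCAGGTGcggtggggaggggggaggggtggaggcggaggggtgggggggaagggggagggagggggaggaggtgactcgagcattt

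The RefSeq table gave windows for 7 of the 10 genes, 14 windows in all, because ZEB1 has 7 starts and CDH2 has 2. SNAI1, SNAI2 and TWIST1 were not matched. The AP-2 motif was found once in FN1, at positions -66 to -58 from the start, and once in TWIST2, at -122 to -114, and in no other window of these genes. It is a palindrome, so that both strands are read at once, and 19.7% of 34943 windows of the same length hold it. FN1 also had 6 matches to the GC box, some of which overlap, TWIST2 had 4 and VIM had 1. ZEB1 starts 1 to 5 and CDH2 start 2 also held the GC box, which is not marked in the ZEB1 sequence above. Of all windows 42.5% hold at least 1. The FN1 window is 76.4% G and C, the TWIST2 window 68.4% and the VIM window 46%, against a median of 58% over all windows. The E-box CACCTG, which reads CAGGTG on the other strand, was present in 2 of the 7 ZEB1 windows, with 1 match at start 1 and 2 at start 3, and in 17.5% of all windows. A match is a run of letters and says nothing about binding in these cells.

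**Figure D1:**
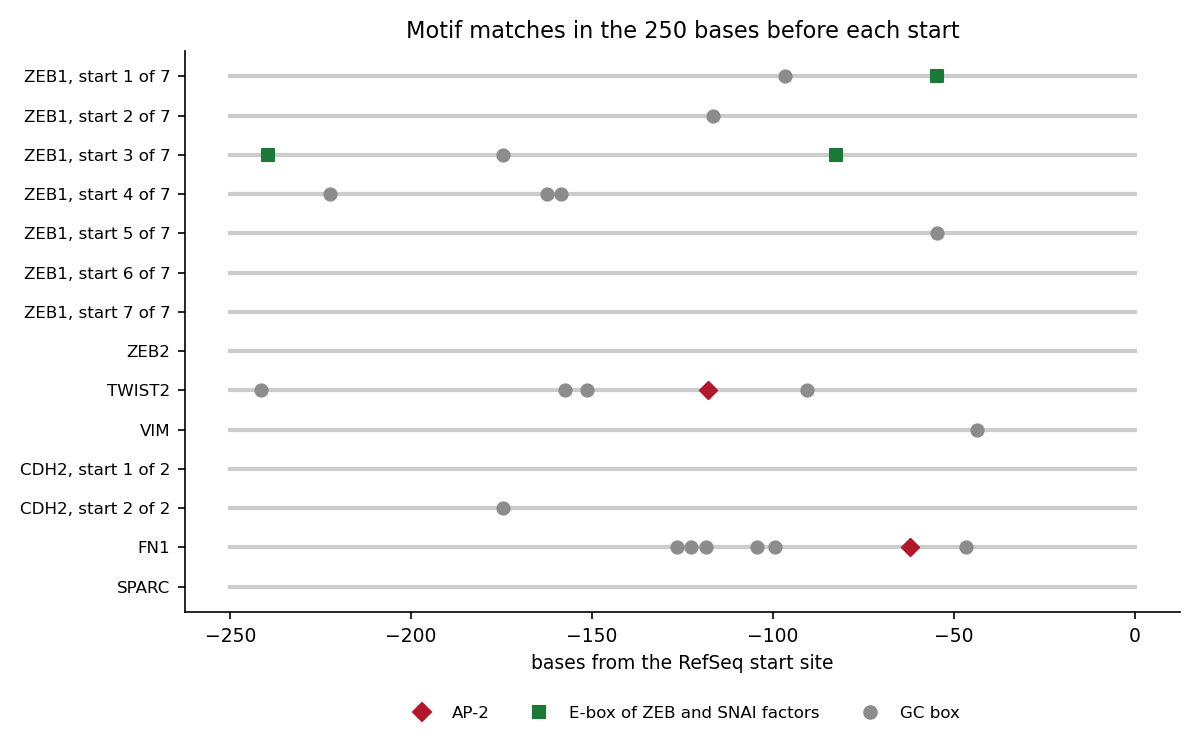
Positions of AP-2 motifs (red diamonds), E-boxes CACCTG or CAGGTG (green squares) and GC boxes (grey circles) in the 250 bases before each RefSeq start site of 7 of the genes. The x axis is the distance from the start in bases and each line is 1 start. FN1 and TWIST2 each hold 1 AP-2 motif, and E-boxes of this type appear at ZEB1 starts 1 and 3.

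None of the 10 genes differed by 2-fold (1 on the log2 scale), a size that 23 of the 11548 genes above the filter reached, or 0.199%. The member that stood farthest out was SNAI2, which was lower on the array labelled TFAP2E. The other members lay near or above 0. In all, 8 of the 10 genes had a positive difference and 2 a negative one, where 54.3% of all 18417 genes were positive. Of the 6 members above the filter 5 were positive, where 59.2% of all genes above the filter were. The median of those 6 members was 0.19 and the median of the 11548 genes was 0.04. Across those 11548 genes the central 95% of differences ran from -0.37 to 0.47, with an SD of 0.219.

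SNAI2 encodes Slug, a repressor that is active in neural crest and in carcinoma cells that detach from their neighbours. It read 5.82 on the array labelled TFAP2E and 6.71 on the vector array. It was thus 1.85-fold lower on the array labelled TFAP2E (difference -0.89), and both values lay above the filter. At 1.5-fold it was the only member called, and 0.606% of the 11548 genes were lower by that much. It ranked 24th from the lowest of all 11548 genes. SNAI1, which encodes the related repressor Snail, was dim at 5.48 on the array labelled TFAP2E and 5.47 on the vector array, a difference of 0.01. SNAI1 lay just under the filter value of 5.55.

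The ZEB genes encode large repressors with zinc finger clusters near both ends, and they form a double-negative loop with the miR-200 family. ZEB1 read 5.88 on the array labelled TFAP2E and 5.70 on the vector array, a difference of 0.18 just above the filter. ZEB2 was dim, at 4.34 on the array labelled TFAP2E and 4.43 on the vector array, a difference of -0.09. Its second probe set, annotated by a single transcript record, read 2.19 on the array labelled TFAP2E and 2.13 on the vector array. The signs of the ZEB2 probe sets differed (-0.09 and 0.05), at levels that the filter calls dim. The differences of ZEB1 and ZEB2 lay within the range that held 95% of genes.

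TWIST1 and TWIST2 encode closely related helix-loop-helix factors of mesoderm, and cross-hybridisation between them was not tested. TWIST1 read 6.26 on the array labelled TFAP2E and 6.06 on the vector array, a difference of 0.20. The TWIST2 probe set was annotated by a single transcript record. TWIST2 read 6.31 on the array labelled TFAP2E and 6.25 on the vector array, a difference of 0.06. Both were above the filter on both arrays and both lay within the 95% range of all genes.

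Among the mesenchymal markers, FN1 and VIM were above the filter on both arrays. FN1, whose product fibronectin is a matrix glycoprotein that binds integrins, read 8.73 on the array labelled TFAP2E and 8.31 on the vector array. It was 1.33-fold higher (difference 0.42), ranked 419th from the highest of 11548 genes, and was the only member above the filter with a positive difference of 0.32 or more, which 7.9% of genes above the filter had. VIM, which encodes the intermediate filament of mesenchymal cells, read 9.85 on the array labelled TFAP2E and 9.61 on the vector array, a difference of 0.24. Both differences lay inside the 95% range of all genes.

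The remaining markers were dim. SPARC, a secreted calcium-binding protein that links cells and collagen, read 4.76 on the array labelled TFAP2E and 4.41 on the vector array, a difference of 0.35. CDH2, the cadherin that takes the place of E-cadherin in a classical cadherin switch, read 4.27 on the array labelled TFAP2E and 4.22 on the vector array, a difference of 0.05. Both values of each lay under the filter. All 4 mesenchymal markers, the 2 dim ones included, had a positive difference, with a median of 0.30. Of all 18417 genes, dim ones included, 54.3% were positive, with a median of 0.03.

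**Figure D2:**
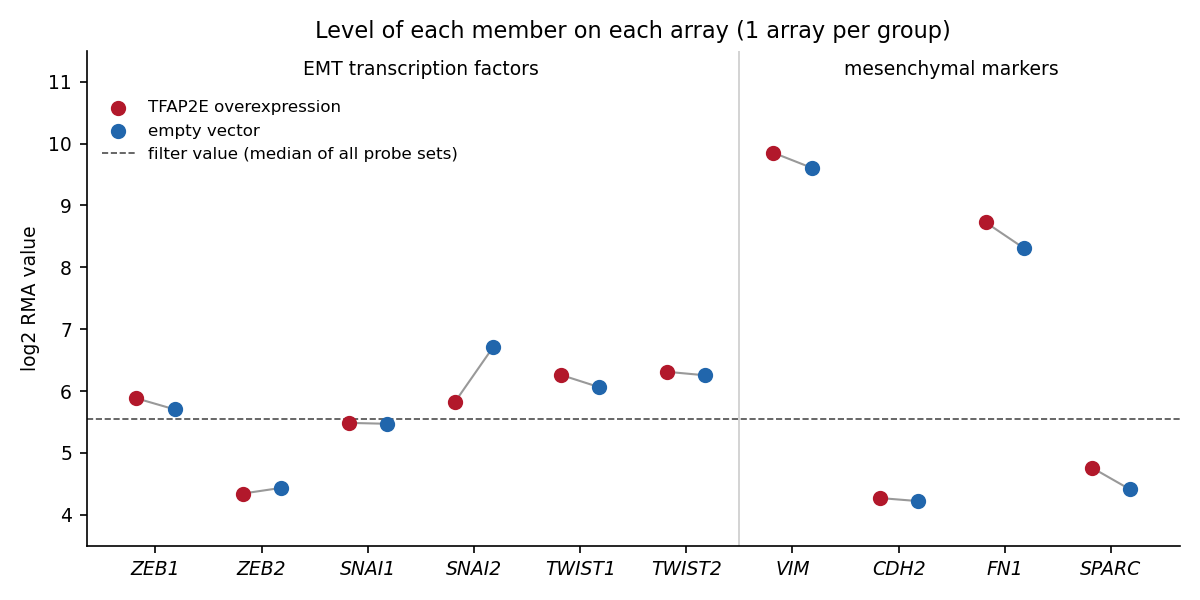
Log2 RMA value (y axis) of each of the 10 genes on the array labelled TFAP2E (red, left of each pair) and the vector array (blue, right). The dashed line is the filter value of 5.55. Each point is 1 array, and levels of different probe sets cannot be set against each other. SNAI2 has the steepest line, at 5.82 on the array labelled TFAP2E and 6.71 on the vector array.

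**Figure D3:**
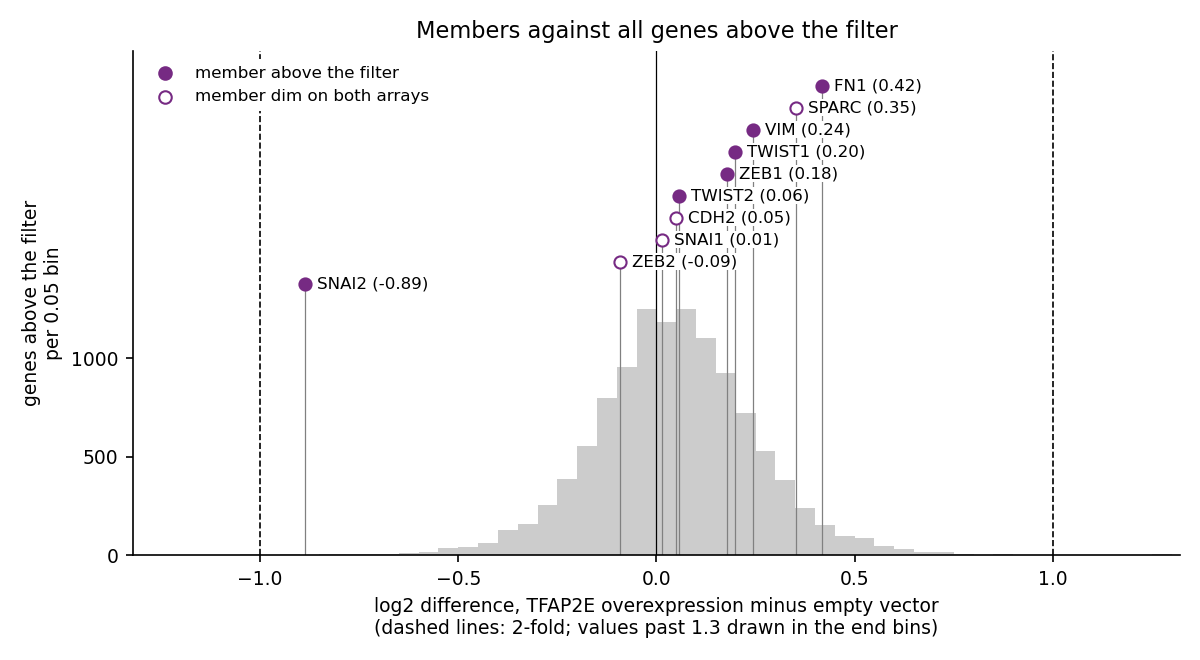
Histogram of the log2 difference (x axis, TFAP2E overexpression minus empty vector) of the 11548 genes above the filter, in bins of 0.05, with each of the 10 genes marked at its own difference. Filled circles are members above the filter and open circles are dim members, and the height of a marker has no meaning. SNAI2 at -0.89 stands alone on the left, and FN1 at 0.42 is the member farthest to the right.

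Each gene was also set beside its chromosomal neighbours, since TWIST1 lies on chromosome 7 in a stretch of genes with positive differences. The 20 neighbours are the 10 nearest genes above the filter on each side, by gene order in RefSeq. Around TWIST1 18 of 20 neighbours were positive, with a median of 0.29, so that TWIST1 at 0.20 lay 0.09 below its neighbourhood (-0.09). Around SNAI2, on chromosome 8, the median was 0.07 and the neighbours ranged from -0.39 to 0.49, and SNAI2 lay outside that range at -0.89. FN1 lay at 0.42 beside a neighbourhood median of -0.01 with a highest neighbour of 0.38. VIM (0.24) lay within the range of its neighbours, -0.22 to 0.33, as did ZEB1 (0.18), whose neighbours ranged from -0.35 to 0.28. Over the 10 genes the neighbourhood medians ran from -0.03 at ZEB2 to 0.29 at TWIST1.

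**Figure D4:**
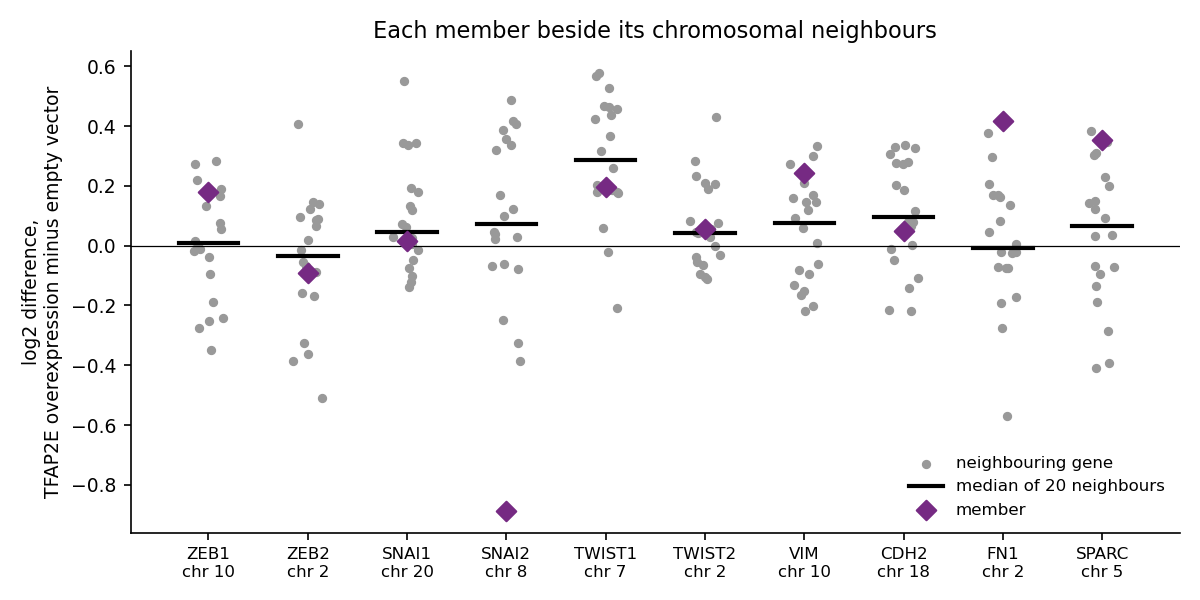
Log2 difference (y axis, TFAP2E overexpression minus empty vector) of each of the 10 genes (purple diamonds) and of its 20 neighbouring genes above the filter (grey points), with the neighbours' median (black bars). SNAI2 and FN1 lie outside the range of their neighbours, and TWIST1 lies among neighbours with a median of 0.29.

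CDH1, which encodes E-cadherin and which factors of this group repress in other systems, was lower on the array labelled TFAP2E, at 6.38 against 7.08 on the vector array (difference -0.71). CDH2 was dim on both arrays, so that no difference between the cadherins is given. In the list of epithelial genes repressed in EMT 18 of 24 genes above the filter were lower and 6 higher (median -0.16). Of all genes above the filter 59.2% were higher, with a median of 0.04. The tight junction protein MARVELD3 (-0.64) followed CDH1, and the desmosomal cadherin DSG2 (0.34) and the claudin CLDN1 (0.22) were highest. By at least 0.32 in log2 units, 4 of the 24 were lower and 1 was higher, where 3.8% of all genes above the filter were lower and 7.9% higher by as much. Of 14 factors that hold the epithelial state 6 were dim. The 8 above the filter split evenly, 4 higher and 4 lower, with a median of 0.06. Among the 4 lower ones, ELF3 lay under the filter value on the array labelled TFAP2E. The ETS factor EHF (0.36) and FOXA2 (0.18) were highest of the 8, and the Krüppel-like factors KLF4 (-0.20) and KLF5 (-0.12) lowest.

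Other transcription factors linked to EMT were measured in 12 cases, of which 9 were lower and 3 higher (median -0.06). Of all genes above the filter 59.2% were higher, with a median of 0.04. None of the 12 differed by 0.32 or more, where 3.8% of all genes above the filter were lower and 7.9% higher by as much. The forkhead factor FOXC2 (-0.25) and the homeobox factor GSC (-0.21) were lowest, while TCF12 (0.25), an E protein that pairs with TWIST factors, and the bone factor RUNX2 (0.08) were highest.

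The wider mesenchymal list was split to both sides. Of 37 genes 18 were dim, and of the 19 above the filter 8 were higher and 11 lower, with a median of -0.03 that became 0.00083 when each array was centred on its median. With the dim genes included the median was 0.02. Of all genes above the filter 59.2% were higher, with a median of 0.04. The matrix protein THBS1 (thrombospondin) read 6.56 on the array labelled TFAP2E and 7.53 on the vector array, and was 1.96-fold lower. CDH11, a cadherin of mesenchymal cells, read 4.93 on the array labelled TFAP2E and 5.88 on the vector array (difference -0.95), and counted from the filter value it was 1.26-fold lower. TNC (tenascin, chosen after its values were seen) read 5.77 on the array labelled TFAP2E and 6.70 on the vector array, 1.91-fold lower. On the other side were TGFBI, a secreted adhesion protein, at 10.6 on the array labelled TFAP2E and 9.96 on the vector array (1.53-fold higher), and the tropomyosin TPM2 (0.43). FN1 and VIM thus had positive differences, as TGFBI did, while SNAI2, THBS1, TNC and CDH11 had negative ones. Of the list 3 were lower past 1.5-fold, or 2 (THBS1 and TNC) with CDH11 counted from the filter value, and 1 was higher. Over all genes above the filter 0.606% were lower and 0.892% higher by as much. By at least 0.32 in log2 units the list was even, with 3 lower and 3 higher (TGFBI, TPM2 and ACTA2, the last at 0.33). By that much 3.8% of all genes above the filter were lower and 7.9% higher.

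**Figure D5:**
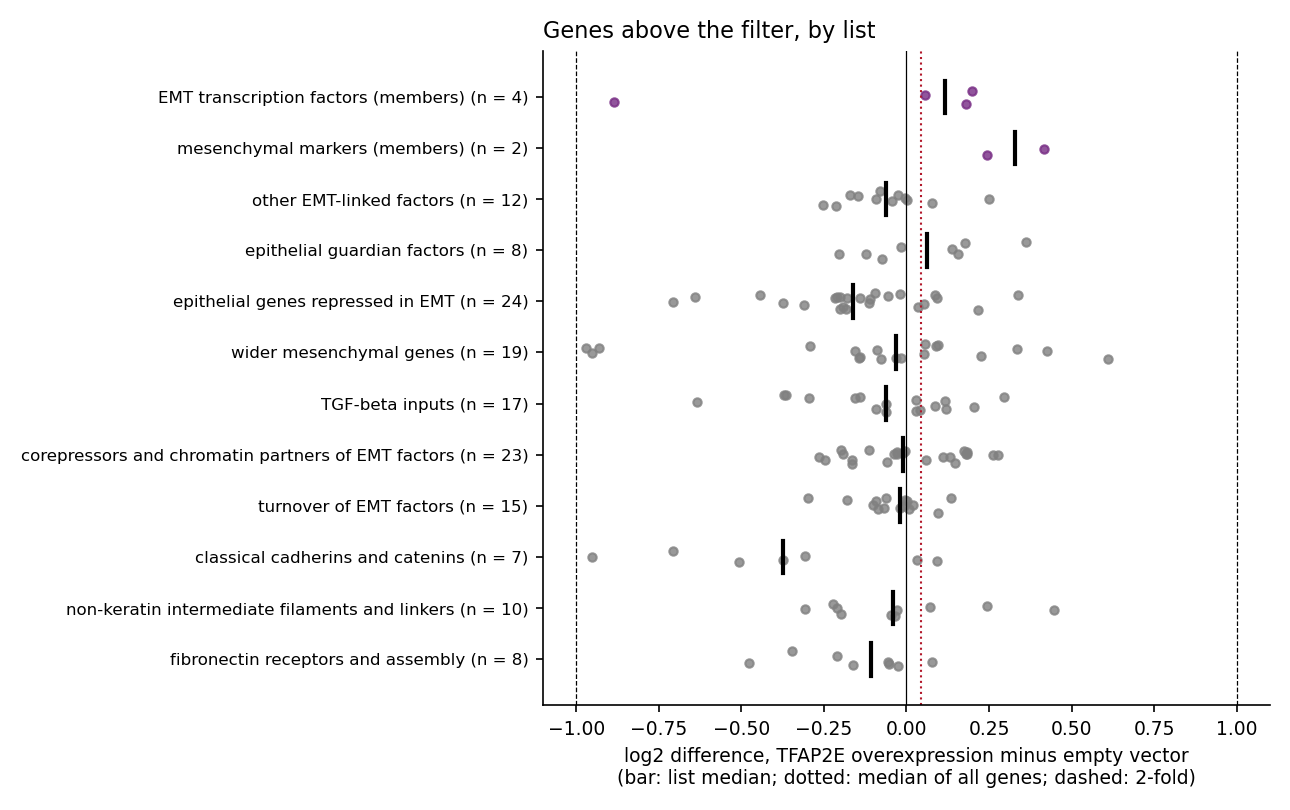
Log2 difference (x axis, TFAP2E overexpression minus empty vector) of each gene above the filter, by list, with the list median (black bar) and the median of all genes (dotted line, 0.04). Members are purple. SNAI2 at -0.89 lies apart from the other factors, and THBS1, CDH11 and TNC form the left edge of the wider mesenchymal list, CDH11 with a value under the filter on the array labelled TFAP2E.

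The gene families of the markers were read as well. Among classical cadherins and catenins 5 of 7 genes above the filter were lower, with a median of -0.37, where 59.2% of all genes above the filter were higher and their median was 0.04. Some of these genes were already counted above, CDH1 and JUP in the epithelial list and CDH11 in the wider mesenchymal list. CDH11 (-0.95) and CDH1 (-0.71) had the lowest differences as deposited. CDH11 was under the filter value on the array labelled TFAP2E, and counted from that value it came to -0.33, above CDH1, with a list median of -0.33. The catenins CTNNAL1 (0.09) and CTNNA1 (0.03) were highest. CDH2 was among the 7 dim members of that list. Of the fibronectin receptors and assembly genes 7 of 8 were lower, with a median of -0.11. As above, 59.2% of all genes above the filter were higher and their median was 0.04. The crosslinking enzyme TGM2 (-0.48) and the integrin beta chain ITGB1 (-0.35) were lowest, and ITGA5 (0.08), the alpha chain of the main fibronectin receptor, and the syndecan SDC1 (-0.02) highest. Besides VIM the other non-keratin filament and linker genes had a median of -0.05 in 9 genes, from nestin (NES, -0.31) and SYNM (-0.22) to NEFL (0.45) and DES (0.07). NEFL was under the filter value on the vector array, and counted from that value its difference was 0.06, below that of DES. The SPARC family had no member above the filter among 8 genes on the array.

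Genes that act on the factors had medians near 0, beside 0.04 for all genes above the filter, of which 59.2% were higher. By at least 0.32 in log2 units, 3.8% of all genes above the filter were lower and 7.9% higher. TGF-beta ligands are among the best known inducers of EMT. Of 17 genes of that pathway above the filter, which also take in receptors, SMADs, latent-binding proteins and inhibitors, 9 were lower and 8 higher (median -0.06). The ligand TGFB2 (-0.63, under the filter value on the array labelled TFAP2E) and the receptor TGFBR1 (-0.37) were lowest, and the binding protein LTBP2 (0.30) and the ubiquitin ligase SMURF1 (0.20) highest. By at least 0.32, 3 of the 17 were lower (TGFB2, TGFBR1 and LTBP3, the last at -0.37) and 0 were higher. Of 23 corepressors and chromatin partners 13 were lower and 10 higher (median -0.01, or 0.01 with median centring), and none differed by 0.32 or more. CREBBP (-0.27) and KAT2B (-0.25), which are acetyltransferases, were lowest, and LIMD1 (0.28), a Snail-binding LIM protein, and the methyltransferase PRMT5 (0.26) highest. Of 15 genes for turnover of the factors 10 were lower and 5 higher (median -0.02, or 0.0041 with median centring). The ubiquitin ligase subunit FBXW7 (-0.30) and the kinase ATM (-0.18) were lowest, and GSK3B (0.13), the kinase that marks Snail for degradation, and FBXO11 (0.09) highest.

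The miR-200 family is shown because it targets ZEB1 and ZEB2 through the seed, bases 2 to 8, in capitals below. The sequences are mature RefSeq entries (GRCh38.p14), grouped by seed, and the array probe sets carry the symbols of the miRNA genes, not of single arms.
hsa-miR-200b-3p: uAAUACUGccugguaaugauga
hsa-miR-200c-3p: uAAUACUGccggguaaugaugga
hsa-miR-429: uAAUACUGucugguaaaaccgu
hsa-miR-200a-3p: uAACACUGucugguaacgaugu
hsa-miR-141-3p: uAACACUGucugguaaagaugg

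The first 3 share one seed and the last 2 another. MIR200B, MIR200A and MIR429 lie on chromosome 1, and MIR200C and MIR141 on chromosome 12. All 5 miRNA genes were dim on both arrays. MIR200C read 4.91 on the array labelled TFAP2E and 5.23 on the vector array, and MIR200B read 5.29 on the array labelled TFAP2E and 5.42 on the vector array. MIR141 differed by 0.14 and MIR429 by -0.11, and MIR200A had the same value, 4.45, on both. Arrays of this kind with labelled total RNA target do not report mature miRNAs, and no level of the mature forms can be given here.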

How the data were processed

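The study measured 2 SW480 samples, 1 array each. Per the submitters' processing notes, the authors ran RMA, and the deposited table holds log2 levels of probe sets. For its software, version and genome build the sources used here give nothing. RMA sets both arrays to nearly one distribution, so that a shift of all transcripts would not appear.

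From these values, probe sets with 1 symbol (19460 of 33297; 1754 had several, 12083 none) were named through the platform annotation and updated by Entrez identifier in RefSeq (19429 found). For the 769 genes with several probe sets, the one with the highest mean was used. Genes passed when the higher value was at or above 5.55. No test was possible with 1 array per group, and the number of arrays limits the precision; a difference of 2-fold served as a rule of size. Named are all members, TFAP2E, CDH1 and the 2 highest and 2 lowest measured non-members of each of 12 wider gene lists. Any other gene, such as TNC, was chosen after its values were seen, and the marker genes are examples. The members and lists were chosen with earlier results of these data known. Neighbouring genes were taken from RefSeq gene order, an analysis added after the values were seen. Python 3.11.15, pandas 2.3.3 and statsmodels 0.14.6 were used. Simulated data served only to check that planted differences past 2-fold were recovered, a size that no member reached.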

Additional observations from a re-analysis of the deposited data

How the results depend on the processing

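Each difference of the 10 genes was recomputed under 5 alternatives (quantile normalization, median centring, loess correction, averaging of probe sets, flooring at percentile 20) and kept its sign. Averaging could alter only ZEB2, the one member with 2 probe sets, and the floor left all 10 values as deposited, so that the 3 scalings carry this check. SNAI2 lay between -0.91 and -0.86 and FN1 between 0.37 and 0.44. Taken from the median of 20 neighbouring genes, an alternative added after the data were seen, TWIST1 moved to -0.090, and SNAI1 (-0.03) and CDH2 (-0.05), both dim, also changed sign. The rule of size moved the counts by construction. Of the 6 members above the filter 0 passed 2-fold, 1 passed 1.5-fold and 2 differed by 0.32 or more on the log2 scale, while over all genes 10 higher and 13 lower at 2-fold became 103 and 70 at 1.5-fold and 912 and 439 at 0.32. With no filter all 10 members counted as measured, and with a filter at the 75th percentile 2 did, with 5 higher and 8 lower genes past 2-fold. The cadherin and catenin list then had a median of -0.14, with fewer genes tested, and its median was -0.33 with dim values replaced by the filter value, an alternative also added later. The median of the members counted was 0.12 with no filter (10 members) and 0.33 with the filter at the 75th percentile (2 members). With 6 members counted it ran from 0.17 (loess correction) to 0.21 (median centring). The median of all genes ran from 0.01 to 0.07. Some list medians lay near 0 and took both signs. These were the medians of the epithelial guardian list (-0.07 to 0.16), the TGF-beta list (-0.10 to 0.03) and the wider mesenchymal list (-0.08 to 0.02). The medians of the corepressor list (-0.07 to 0.01) and the turnover list (-0.07 to 0.00) did so too. Scaling shifts the values and the filters change which genes are counted, and the part of each was not tested. No paired analysis was possible because there is a single array on either side, which also left no replicate to leave out.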
